A study of Rattus norvegicus with 30 samples.

Results

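The comparison set primary rat hepatocytes exposed to 1000 µM dioctyl phthalate for 24 h against hepatocytes given the vehicle alone for the same time. It used the 5 arrays labelled with that dose and the 5 labelled as vehicle at 24 h, 10 of the 30 arrays of the study. The other arrays held 250 µM at 24 h and all 3 treatments at 48 h. Every gene with a probe set of its own was taken, read by the probe set with the highest mean over all 30 arrays. This gave 14217 genes, of which 10528 lay above a low-signal limit and were tested.

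All groups shared the same cells and vehicle. They were purchased as frozen hepatocytes from male rats of the Sprague Dawley strain and grown on collagen under a Matrigel overlay. The compound, or nothing, was added in 1% DMSO on day 3, and each array held RNA of 1 separate well. The sources used here give neither the number of animals behind the wells nor the ages of the rats, so p-values measure the spread between wells. The labels give the name of the compound, a phthalate diester used to soften plastics, without saying which octyl isomer it is. The labels call the study a time course and dose response, so the comparison addresses what the higher dose did to RNA levels at the earlier time.

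Phthalate diesters are cleaved to monoesters, and several of these activate PPARα, a nuclear receptor that binds fatty acids. With its partner RXR, PPARα binds DNA at a repeat of 2 hexamers called DR1 and switches on genes of fatty acid uptake, activation and oxidation. In rodent liver, PPARα activators are known for enlarging the peroxisome compartment and raising the enzymes of peroxisomal beta-oxidation.

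The cultures carried the RNA of hepatocytes. Albumin (Alb) stood at 16 ± 0.304 (SD, n = 5) in vehicle and 15.88 ± 0.218 at 1000 µM, on the log2(signal + 1) scale used for all levels here. All 22 hepatocyte markers with a probe set passed the low-signal limit of 7.88 on this scale. Below the limit were 9 of 16 stellate cell, 7 of 16 Kupffer cell and leukocyte, 8 of 12 endothelial and 6 of 9 cholangiocyte markers, among them Lrat, Ptprc, Pecam1 and Krt19. The others passed it: 7 stellate cell markers, with Vim and Acta2, 9 of Kupffer cells and leukocytes, 4 endothelial and 3 cholangiocyte markers. RNA of other cell types was therefore not shown to be absent. Correlations between arrays of 1 group, across genes, were 0.969 to 0.986. The beta-actin 3'/5' log2 ratio, which rises with RNA breakdown, was 1.14 ± 0.0957 at 1000 µM and 1.14 ± 0.0841 in vehicle (n = 5 each, exact two-sided permutation p = 0.96).

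Genes of fatty acid oxidation rose: 7 of 7 tested genes of the carnitine shuttle, 16 of 20 of mitochondrial and 10 of 13 of peroxisomal beta-oxidation were called higher and 0 lower. Of the 10528 tested genes, 872 rose (8.28%) and 1179 fell (11.2%) at a Benjamini-Hochberg adjusted p under 0.05 in limma, a linear model with moderated variances. In all, 2051 genes were called (19.5%). Most calls were small: 1354 of them (66.0%) moved by less than 0.5 on the log2 scale, and the median size was 0.40. At least 1.5-fold changes numbered 501 (4.76%). At least 2-fold changes numbered 136 (1.29%), of which 95 were up (0.902%) and 41 down (0.389%). At least 4-fold changes numbered 11 up (Acot1, Ehhadh, Nim1k, Ucp2, Pdk4, Cyp4a1, Lrrc39, Dnajb3, Spc24, Hilpda and Slc6a13) and 2 down (Calml4 and Ccn2). In Acot1, Nim1k, Ucp2, Dnajb3 and Calml4, 1 group mean lay below the low-signal limit. The 5 treated wells lay above all 5 vehicle wells for 664 genes (6.31%) and below all of them for 822 (7.81%), together 14.1% of those tested.

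The balance of rises and falls depended on how the arrays were scaled. The median log2 signal of the tested genes was 10.58 ± 0.0289 at 1000 µM and 10.64 ± 0.0347 in vehicle (SD, n = 5 each, exact two-sided permutation p = 0.0159, adjusted p = 0.0476 over 3 quality measures). With these medians set equal, 1172 genes rose and 793 fell. With ribosomal protein genes set equal, 1100 rose and 525 fell. With the medians of all probe sets set equal, 677 rose and 607 fell, and with quantile normalization 965 and 1124. No gene called under both the deposited scaling and one of these 4 changed sign. Values below carry the authors' scaling, under which the median change of all tested genes was −0.03.

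**Figure D1:**
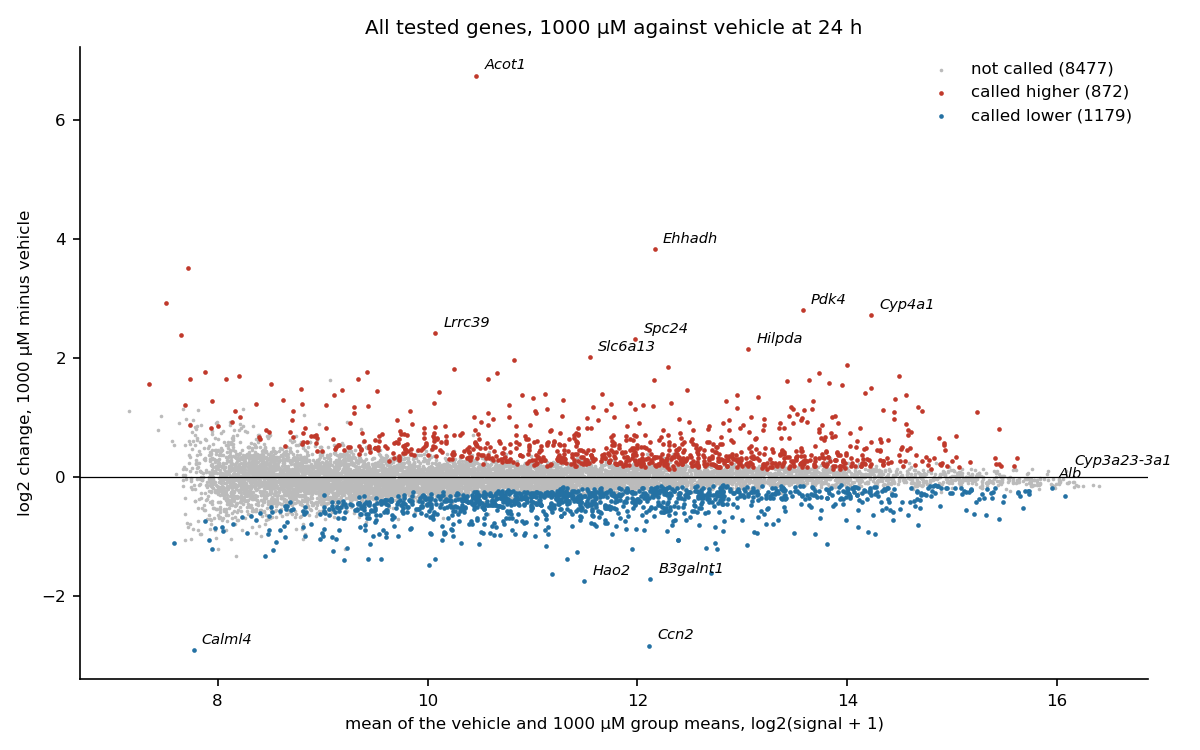
Each point is 1 tested gene, with the mean of the vehicle and 1000 µM group means on the horizontal axis, in log2(signal + 1), and the log2 change from vehicle to 1000 µM on the vertical axis. Red points are the 872 genes called higher, blue points the 1179 called lower, and the largest measured rise (Acot1, 6.75) exceeds the largest measured falls (Calml4, −2.92, and Ccn2, −2.84).

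The largest rise of all was that of Acot1, a thioesterase that cuts long-chain acyl-CoA into fatty acid and coenzyme A in the cytosol. Its log2 levels were 7.35, 7.41, 6.71, 6.67 and 7.31 in the vehicle wells and 13.89, 13.72, 13.82, 13.83 and 13.95 in the treated wells. All vehicle values lay below the low-signal limit and all treated values were far above it. The measured change was 6.75 ± 0.24 (SE, limma adjusted p = 5.05e-21), and against the limit it was at least 62.5-fold. Its mitochondrial and peroxisomal relatives Acot2 and Acot4 rose by 1.62 ± 0.07 and 1.46 ± 0.09. Acot2 was counted with mitochondrial beta-oxidation, Acot4 with peroxisomal beta-oxidation and Acot1 with fatty acid uptake, binding and activation. These genes are close copies of each other, and whether their probe sets read more than 1 of them was not tested.

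Peroxisomal beta-oxidation, which shortens very long and branched fatty acids, rose as a group. Of its 13 tested genes 10 rose and 0 fell, with a median change of 0.91. Ehhadh, the bifunctional enzyme of the pathway's middle steps, had levels of 9.98, 10.17, 10.36, 10.46 and 10.29 in vehicle and 14.02, 14.04, 14.10, 14.18 and 14.08 at 1000 µM. The nearest wells of the 2 groups were 3.56 apart, and the change was 3.83 ± 0.14, or 14.2-fold (adjusted p = 1.32e-20). The isomerases Eci2 and Ech1 rose by 1.31 ± 0.06 and 1.18 ± 0.06.

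Among the peroxins, which build and divide peroxisomes, 6 of 16 tested genes rose and 0 fell, with a median of 0.17. Pex11a, which elongates peroxisomes before division, went from 13.22, 13.42, 13.40, 13.42 and 13.42 to 14.27, 14.45, 14.38, 14.41 and 14.45. Its rise by 1.02 ± 0.05 was the largest of the list, followed by Pex19 at 0.74 ± 0.08 and Pex16 at 0.62 ± 0.10. A second probe set of Pex16 gave 0.11.

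Other peroxisomal enzymes gave mixed results. Catalase (Cat), which removes hydrogen peroxide, lay at 15.17, 15.34, 15.35, 15.39 and 15.49 in vehicle and at 15.16, 15.58, 15.56, 15.38 and 15.50 at 1000 µM. The groups overlapped, and the change of 0.09 ± 0.07 did not pass (adjusted p = 0.421, 95% interval −0.05 to 0.23). Among 9 oxidases and related enzymes 1 rose and 2 fell, and 3 rose under quantile normalization or with ribosomal protein genes set equal. Hacl1, a lyase that shortens branched and 2-hydroxy acids, rose by 1.63 ± 0.08, and both hydroxyacid oxidases fell.

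Hao2, the hydroxyacid oxidase for long-chain substrates, had levels of 12.33, 12.37, 12.35, 12.46 and 12.34 in vehicle and 10.74, 10.41, 10.70, 10.58 and 10.66 at 1000 µM. The vehicle wells spanned 0.13, and the highest treated well lay 1.59 below the lowest of them. It fell by 1.75 ± 0.08, or 3.37-fold (adjusted p = 1.48e-17). Hao1, which oxidizes glycolate, fell by 0.82 ± 0.10.

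The carnitine shuttle, which carries fatty acids into mitochondria, rose throughout. All 7 tested genes rose, with a median of 1.13. Cpt1b, the form of the outer-membrane transferase that is typical of muscle, went from 10, 9.88, 9.77, 9.70 and 9.82 in vehicle to 11.68, 11.73, 11.83, 11.86 and 11.94. This was a change of 1.97 ± 0.09, or 3.93-fold (adjusted p = 3.96e-18). The liver form Cpt1a rose by 1.01 ± 0.14, with vehicle replicate 1 at 11.90 above the other 4 at 10.94 to 11.36. Crat, which moves acetyl groups onto carnitine, rose by 1.39 ± 0.09, and Slc22a5, which imports carnitine, by 1.17 ± 0.09.

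Mitochondrial beta-oxidation rose in 16 of 20 tested genes and fell in 0 (1 under quantile normalization), with a median of 0.61. Acadm, the medium-chain dehydrogenase, went from 12.81, 12.77, 12.82, 13 and 13.14 to 14.04, 14.02, 14.09, 14.09 and 14.06. The treated wells spanned 0.07, and the change was 1.15 ± 0.06 (adjusted p = 2.33e-17). Acaa2 and Hadha, which carry out later steps of the cycle, rose by 1.09 ± 0.06 and 1.02 ± 0.06. Of 4 tested genes of ketone body synthesis and export 3 rose, led by Acat1 at 1.00 ± 0.06.

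Uptake, binding and activation of fatty acids rose in 11 of 22 tested genes and fell in 3, in a list that included the thioesterase Acot1. Acsl1, which activates long-chain fatty acids with coenzyme A, went from 13.12, 13.09, 12.99, 13.05 and 12.99 to 14.80, 14.96, 15.03, 14.95 and 14.97. It rose by 1.89 ± 0.07, or 3.72-fold, and a second probe set by 2.56. Fabp1, the fatty acid-binding protein of liver, went from 12.99, 13.17, 12.97, 13.10 and 12.98 to 14.64, 14.63, 14.61, 14.66 and 14.56. Its treated wells spanned 0.10, and it rose by 1.58 ± 0.05, or 2.99-fold (adjusted p = 4.13e-22). Fabp3, the heart form, rose from a vehicle mean of 7.72, below the limit, to 9.29.

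Genes of the lipid droplet followed: 11 of 18 rose and 1 fell, with a median of 0.39. Hilpda, a droplet protein that inhibits triglyceride breakdown, went from 11.79, 12.03, 12.26, 12.02 and 11.80 to 14.03, 14.09, 14.07, 14.19 and 14.25. This was 2.15 ± 0.08, or 4.43-fold (adjusted p = 3.87e-20). G0s2, which restrains the same lipase, rose by 1.28 ± 0.07, and the monoglyceride lipase Mgll by 1.19 ± 0.08. The member that fell was Pnpla3, a droplet lipase, from a vehicle range of 9.80 to 10.76 to a treated range of 8.22 to 9.43. Its change was −1.39 ± 0.17, and its 2 other probe sets gave −2.09 and −0.39.

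**Figure D2:**
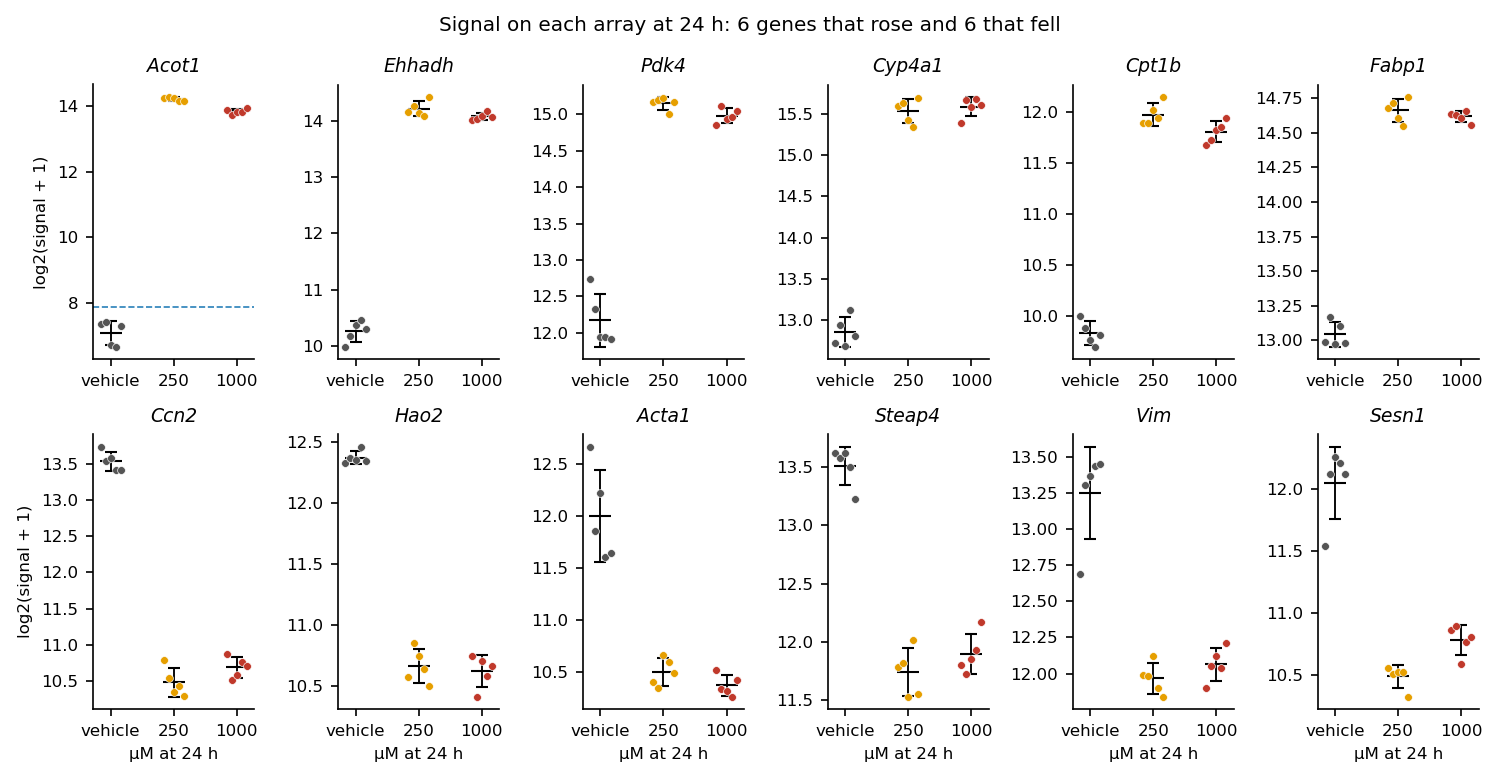
Each panel shows 1 gene, with log2(signal + 1) on the vertical axis for the 5 vehicle, 5 wells at 250 µM and 5 at 1000 µM at 24 h; points are wells, the horizontal mark is the mean and the bar 1 SD, and the dashed line in the Acot1 panel is the low-signal limit of 7.88. In all 12 panels the 1000 µM wells lie on one side of the vehicle wells, above them in the upper row and below them in the lower row.

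Among 19 other genes tied to PPAR activity or fuel switching, 10 rose and 1 fell. Pdk4, a kinase that shuts pyruvate dehydrogenase and so spares glucose, went from 12.74, 12.33, 11.94, 11.94 and 11.91 in vehicle to 14.85, 15.11, 14.94, 14.96 and 15.05. It rose by 2.81 ± 0.12, or 7.01-fold (adjusted p = 4.3e-19). Txnip, an inhibitor of thioredoxin and of glucose uptake, went from 12.94, 12.89, 12.81, 12.80 and 12.88 to 14.56, 14.56, 14.63, 14.63 and 14.63, a rise of 1.74 ± 0.05.

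Glycerol kinase (Gk) rose by 1.63 ± 0.07 and Angptl4, a secreted inhibitor of lipoprotein lipase, by 1.54 ± 0.06. Ppara itself was read by a dim probe set, at 6.12, 8.42, 8.65, 7.95 and 9.07 in vehicle and 8.19, 8.73, 8.52, 8.63 and 8.66 at 1000 µM. Its change of 0.51 ± 0.55 did not pass (adjusted p = 0.598), and its 95% interval of −0.62 to 1.63 includes a 2-fold rise.

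Glucose handling split by enzyme. Of 10 gluconeogenesis and glycogen genes 4 rose and 4 fell, with 2 to 4 falls over the other scalings. Their changes ran from −1.13 to 0.87, with a median of −0.06. Among those that rose, glycogen synthase Gys2 changed by 0.87 ± 0.08 and Pck1, the pathway's controlling enzyme, by 0.70 ± 0.18. In glycolysis 0 of 16 genes rose and 4 fell, with 0 to 2 rises and 2 to 5 falls over the other scalings. Pklr, the liver pyruvate kinase, fell by 0.77 ± 0.10. Pfkfb3, which makes a sugar phosphate that speeds glycolysis, fell by 0.97 ± 0.17, but its other probe set gave −0.01. In the tricarboxylic acid cycle list 8 of 26 genes rose and 2 fell, with Pdp2, the phosphatase that opposes Pdk4, up by 1.00 ± 0.11.

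Fat synthesis was divided as well, with 9 of 22 genes higher and 5 lower. Elovl6, which elongates fatty acids, rose by 0.99 ± 0.09, and Dgat1, which completes triglycerides, by 0.86 ± 0.07. Lpin1, a phosphatidate phosphatase and coactivator, went the other way, from 13.37, 13.61, 13.65, 13.72 and 13.74 to 12.52, 12.49, 12.46, 12.40 and 12.46. It fell by 1.15 ± 0.10, and a second probe set changed by −1.19.

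Omega-oxidation, in which cytochromes of the CYP4 family hydroxylate the end of a fatty acid, rose for 3 of 9 genes and fell for 2. Cyp4a1 went from 12.73, 12.95, 12.69, 13.13 and 12.81 to 15.39, 15.67, 15.58, 15.68 and 15.61. The change was 2.72 ± 0.08, or 6.60-fold (adjusted p = 8.79e-23), and Cyp4a3 rose by 1.70 ± 0.07. Both Cyp4a genes rose while Cyp4f6, which acts on leukotrienes and related lipids, fell by 0.32 ± 0.07.

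Of 29 drug-metabolizing cytochromes of families 1 to 3, 4 rose and 10 fell, a balance that turned to 6 rises and 3 falls with ribosomal protein genes set equal. Cyp3a23-3a1, the main target of the drug sensor PXR, was at 16.04 ± 0.161 in vehicle and 16.13 ± 0.210 at 1000 µM (change 0.09 ± 0.08, adjusted p = 0.456). Cyp1a1, the main target of the dioxin receptor, fell by 0.41 ± 0.11 (adjusted p = 0.00531). With only the 10 arrays of both groups in the fit its adjusted p was 0.0848. Cyp2c6v1 rose by 0.78 ± 0.06.

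Retinoid genes rose in 5 of 17 cases and fell in 1. Retsat, which saturates retinol, rose by 0.88 ± 0.08, and Aldh1a1, which makes retinoic acid, by 0.83 ± 0.07. Cyp26a1, which clears retinoic acid, rose from a vehicle mean of 7.32, below the limit, to 8.58.

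Several of the 15 largest rises, ranked with group means below the limit raised to it, lie outside these pathways. Lrrc39, a leucine-rich repeat protein of striated muscle, went from 9.0, 8.73, 8.83, 9.03 and 8.74 to 11.24, 11.44, 11.20, 11.25 and 11.29, a change of 2.42 ± 0.09. Spc24, a subunit of the kinetochore that anchors chromosomes to the spindle, went from 10.42, 10.97, 10.98, 11.10 and 10.64 to 13.16, 13.18, 13.15, 13.15 and 13.05, a change of 2.32 ± 0.09. The nearest wells of the 2 groups were 2.17 apart for Lrrc39 and 1.95 apart for Spc24.

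Of 23 cell cycle genes 4 rose and 1 fell, a share called of 21.7%, near the 19.5% over all tested genes. The rise of Cdc20 had overlapping groups and a vehicle mean below the limit, and lost its call under 8 alternatives. Cyclin D1 (Ccnd1), which opens the G1 phase, rose by 1.11 ± 0.11, and the phosphatase Cdc25a by 0.69 ± 0.09. Slc6a13, a transporter of GABA and taurine, rose by 2.01 ± 0.09 to 4.02-fold. Aig1, a hydrolase of fatty acid esters of hydroxy fatty acids, rose by 1.84 ± 0.06, mitochondrial glycerol phosphate dehydrogenase Gpd2 by 1.82 ± 0.13, the phosphate transporter Slc34a2 by 1.77 ± 0.14 and the protease inhibitor Serpine2 by 1.75 ± 0.09.

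**Figure D3:**
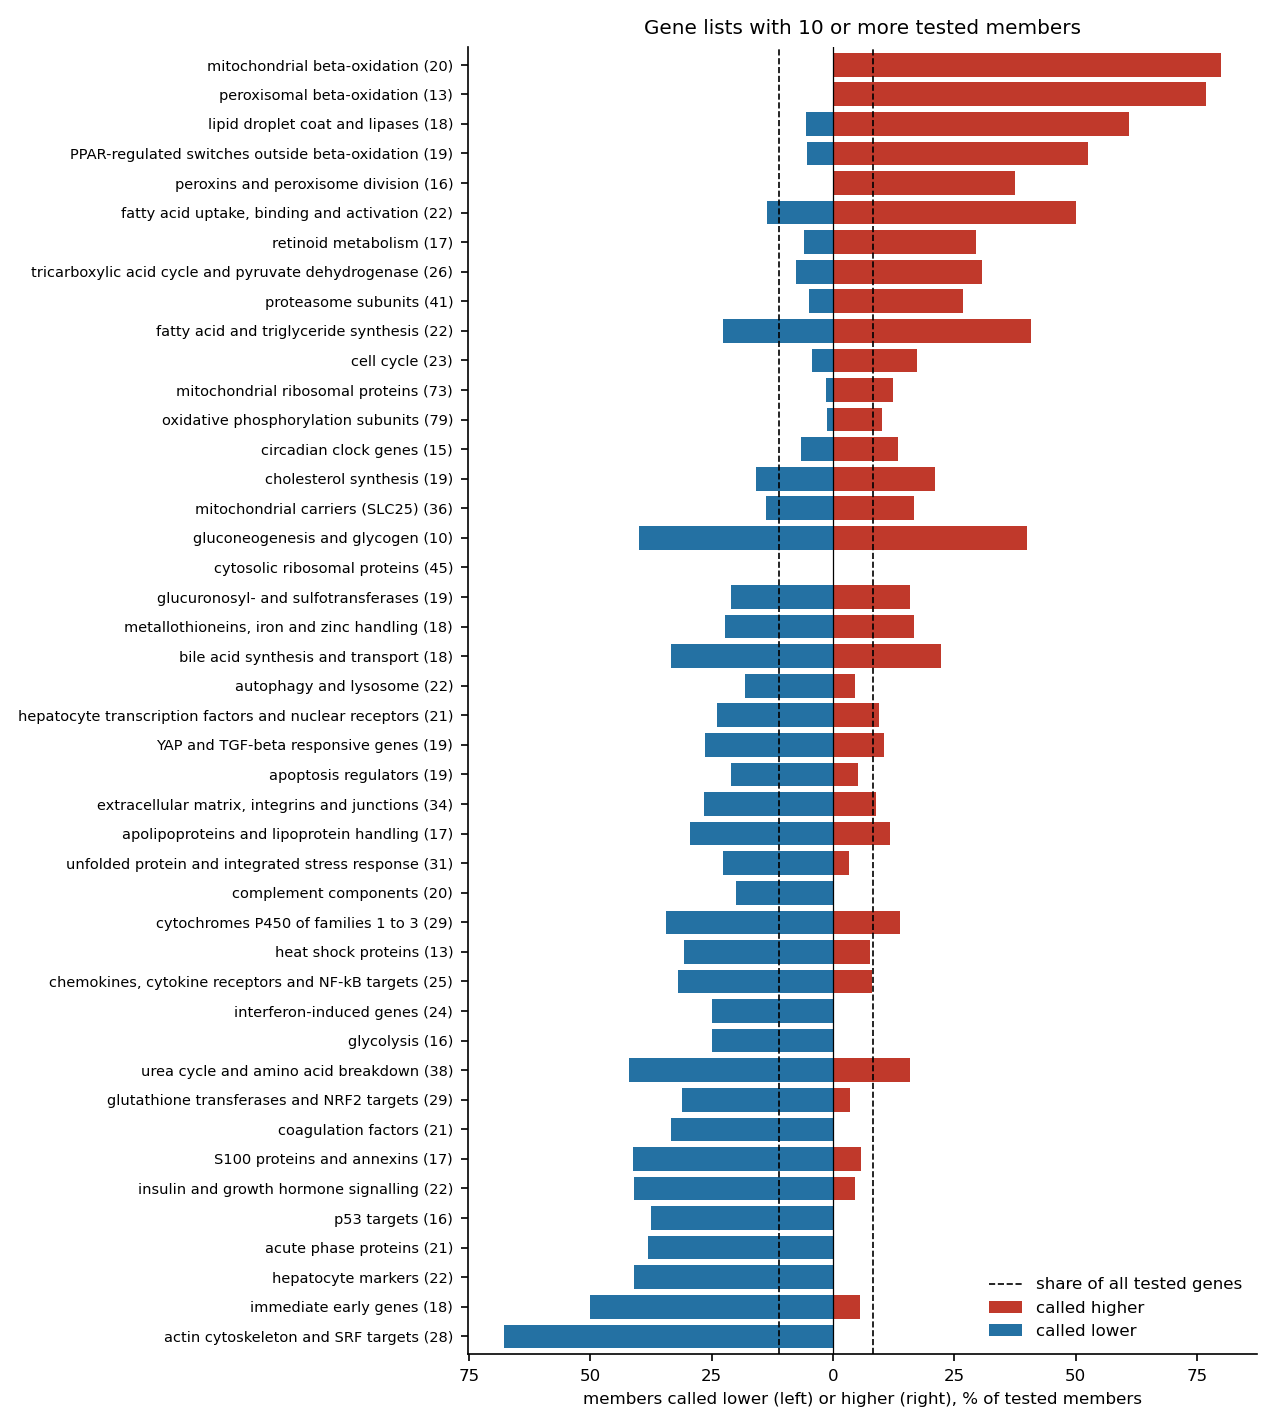
Each bar is 1 gene list with 10 or more tested members (their number in brackets); the bar to the right is the percentage of members called higher and the bar to the left the percentage called lower. Dashed lines mark the shares over all tested genes, 8.28% higher and 11.2% lower; mitochondrial beta-oxidation extends farthest right and the actin cytoskeleton list farthest left.

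Because PPARα binds DR1, the promoters of the strongly raised genes were searched for it. The search covered 250 bases before to 50 after the start of each gene in RefSeq's promoter table (build GRCr8), on both strands. It looked for 2 AGGTCA hexamers in the same direction with 1 base between them and at most 2 mismatches. Such a repeat was found in 9 of the 75 promoters of genes raised at least 2-fold (12%), in 250 of 8840 promoters of tested genes (2.83%) and in 1020 of all 27457 promoters (3.71%). It was found in 0 of 32 promoters of genes lowered at least 2-fold. Which proteins bind these repeats was not tested. The perfect hexamer alone, which each perfect repeat also contains, was in 13.3% of the raised, 12.5% of the lowered and 12.3% of the tested promoters. Of the 15 genes with the largest rise, ranked without overlap and with group means below the limit raised to it, 11 had a promoter in the table, and 0 of these held the repeat in this window.

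The 4 raised genes with at most 1 mismatch were Fabp1, Acot4, Acot12 and Pdzk1. Acot12 is a cytosolic acetyl-CoA thioesterase that rose by 1.37 ± 0.09. Pdzk1, a scaffold of the HDL receptor, rose by 1.12 ± 0.11. The 150 bases before each start are printed 5′ to 3′ on the gene's strand, to show where the repeat lies, with capitals for the repeat and its spacer. In the first 3 the repeat reads along the opposite strand and in Pdzk1 along the gene's own strand. Their coordinates are chr4:104749190-104749339, chr6:109399704-109399853, chr2:24721809-24721958 and chr2:187064845-187064994, all on the plus strand.
Fabp1: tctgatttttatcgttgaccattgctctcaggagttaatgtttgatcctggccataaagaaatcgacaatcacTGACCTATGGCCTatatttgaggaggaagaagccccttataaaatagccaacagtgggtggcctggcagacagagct
Acot4: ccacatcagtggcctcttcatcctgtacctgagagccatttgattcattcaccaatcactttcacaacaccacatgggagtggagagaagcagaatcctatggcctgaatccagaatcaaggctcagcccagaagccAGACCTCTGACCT
Acot12: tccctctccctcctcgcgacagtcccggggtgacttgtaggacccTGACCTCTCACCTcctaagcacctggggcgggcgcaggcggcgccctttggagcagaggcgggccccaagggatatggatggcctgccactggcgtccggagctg
Pdzk1: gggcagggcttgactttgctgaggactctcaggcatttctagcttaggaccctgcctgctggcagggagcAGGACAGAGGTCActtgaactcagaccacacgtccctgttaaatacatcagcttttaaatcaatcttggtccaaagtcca

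The repeat starts 77 bases before the start of Fabp1, 13 before that of Acot4, 105 before that of Acot12 and 80 before that of Pdzk1, counted on the gene's strand. The other 5 raised genes with a repeat, each with 2 mismatches, were Crat, Creb3l3, Dact2, Nim1k and Oat. The promoter of Cat, which did not pass the test, also held a repeat with 2 mismatches.

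The largest fall among genes with both group means above the low-signal limit was that of Ccn2, a secreted matrix protein also known as connective tissue growth factor. Its log2 levels were 13.73, 13.53, 13.57, 13.41 and 13.41 in vehicle and 10.88, 10.52, 10.59, 10.76 and 10.71 at 1000 µM. The nearest wells of the 2 groups were 2.53 apart, and the change was −2.84 ± 0.10, a 7.16-fold decrease (adjusted p = 2.34e-21). Of 19 YAP and TGF-beta responsive genes, to which Ccn2 belongs, 5 fell and 2 rose. Its relative Ccn1 fell by 0.84 ± 0.17, while Id1, a target of BMP signals, rose by 0.98 ± 0.12.

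Genes of the actin cytoskeleton fell as a group: 19 of 28 tested genes fell and 0 rose, with a median of −0.30. Over the other scalings 13 to 20 fell and 0 rose. In no other list of 10 or more tested genes was the share of falls as high, under the authors' scaling. Acta1, the actin of skeletal muscle, went from 12.67, 11.86, 12.22, 11.61 and 11.65 to 10.52, 10.33, 10.31, 10.26 and 10.42. It fell by 1.63 ± 0.15, or 3.10-fold (adjusted p = 1.46e-10). The intermediate filament gene Vim went from 12.69, 13.31, 13.37, 13.44 and 13.45 to 11.90, 12.05, 12.12, 12.04 and 12.21, a change of −1.19 ± 0.09. The actin crosslinker Flna fell by 0.92 ± 0.18 and tropomyosin Tpm4 by 0.63 ± 0.05.

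Vim and Acta2 are also markers of stellate cells, and fewer cells of a type cannot be told apart from less RNA per cell in such bulk samples. Acta2 changed by −0.46 ± 0.14 (adjusted p = 0.019). It lost its call when vehicle replicate 1 or 1000 µM replicate 1 was left out and with ribosomal protein genes set equal, with an adjusted p of up to 0.0898. The summed signal of the 16 stellate markers was 11463 to 17174 in vehicle (median 15479) and 8316 to 9600 at 1000 µM (median 8995). This sum of linear signals weighs bright genes most, and Vim made up most of it in vehicle. The fall of the sum therefore largely repeats that of Vim and does not describe the 16 markers as a set. Of the 7 tested, these 2 fell, 0 rose and the other 5, Col1a1, Col3a1, Des, Gfap and Reln, did not pass; Lrat, Pdgfrb, Lum, Dcn and Tagln were below the limit. The part of these cells in the fall was not tested.

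Matrix and junction genes fell in 9 of 34 cases and rose in 3. Timp3, an inhibitor of matrix proteases, fell by 1.13 ± 0.13, the laminin chain Lamc1 by 0.89 ± 0.12, E-cadherin (Cdh1) by 0.84 ± 0.08 and fibronectin (Fn1) by 0.81 ± 0.07. S100 proteins and annexins, which bind calcium, fell in 7 of 17 cases and rose in 1, the lowest being Anxa6 at −0.57 ± 0.15 and S100a6 at −0.56 ± 0.08.

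Other large falls came from varied genes. Steap4, a metal reductase that reduces iron and copper, went from 13.62, 13.58, 13.62, 13.50 and 13.23 to 11.80, 11.72, 11.85, 11.93 and 12.17, a fall of 1.62 ± 0.11. B3galnt1, a glycosyltransferase of globoside synthesis, went from 12.85, 12.99, 13.04, 13.06 and 12.98 to 11.38, 11.20, 11.51, 11.39 and 10.83, a fall of 1.72 ± 0.10. Both groups of wells were separated in each gene, by 1.06 for Steap4 and 1.34 for B3galnt1.

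Sesn1, a stress-induced inhibitor of mTORC1, went from 11.54, 12.12, 12.26, 12.21 and 12.12 to 10.87, 10.90, 10.59, 10.77 and 10.81, a fall of 1.26 ± 0.11. The trafficking adaptor Rab11fip5 fell by 1.38 ± 0.12 and AMP deaminase Ampd3 by 1.39 ± 0.22. Calml4, a calmodulin-like protein, went from 9.27, 9.23, 8.89, 9.35 and 9.39 to 6.65, 6.41, 6.01, 5.58 and 6.88, all below the limit. The measured change was −2.92, and the limit bounds its fall at 2.55-fold or more. Dctn1, a subunit of the dynein motor's partner, changed by −1.24 ± 0.30, with an SD of 1.11 among treated wells. The remaining falls among the 15 largest, Cdr2, Tsx, Ccdc134 and Sgsm2, were changes of −1.48 to −1.33, and the treated mean of Sgsm2 lay below the limit.

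Liver-specific metabolism fell in part. Of 38 urea cycle and amino acid genes 16 fell and 6 rose, with a median of −0.18 and 9 to 16 falls over the other scalings. Tat, which starts tyrosine breakdown and responds to glucocorticoids, went from 14.37, 14.31, 14.43, 14.30 and 14.44 to 13.28, 13.21, 13.29, 13.28 and 13.16. The fall was 1.13 ± 0.07, or 2.18-fold (adjusted p = 1.05e-14). Hal, which starts histidine breakdown, fell by 0.97 ± 0.15, Kmo of the tryptophan pathway by 0.95 ± 0.11 and Ass1 of the urea cycle by 0.64 ± 0.06. Of the 22 hepatocyte markers 9 fell and 0 rose; Alb changed by −0.12 ± 0.12 (adjusted p = 0.542).

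Bile acid genes fell in 6 of 18 cases and rose in 4. Cyp7a1, whose product sets the pace of bile acid synthesis, went from 9.70, 10.18, 9.86, 10.27 and 9.91 to 9.17, 8.72, 9.03, 9.02 and 8.97. It fell by 1.00 ± 0.13, or 2.00-fold (adjusted p = 3.51e-07). Abcg5 and Abcg8, which form the sterol exporter of the canalicular membrane, rose by 0.96 ± 0.14 and 0.67 ± 0.18, and Nr1h4, the bile acid receptor FXR, by 0.69 ± 0.07. Among lipoprotein genes 2 of 17 rose and 5 fell: Mttp, which loads lipid onto apolipoprotein B, rose by 0.80 ± 0.07, while Apoa5, an activator of lipoprotein lipase, fell by 0.92 ± 0.07. Cholesterol synthesis genes showed 4 rises and 3 falls among 19.

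Lists of secreted plasma proteins held falls without a called rise. In them 8 of 21 acute phase proteins, 4 of 20 complement components and 7 of 21 coagulation factors fell and 0 rose. Over all tested genes 8.28% rose and 11.2% fell, a share called of 19.5%. The complement list lay near that share, while 38.1% of the acute phase and 33.3% of the coagulation list were called. Under other scalings 1 member was called higher: in the acute phase list with ribosomal protein genes set equal, in the complement list with array medians set equal, and in the coagulation list with ribosomal protein genes set equal or quantile normalization. Falls of coagulation factors numbered 4 with ribosomal protein genes or all probe set medians set equal. Lbp, which binds bacterial lipopolysaccharide, went from 13.37, 12.83, 12.83, 12.78 and 12.77 to 11.73, 11.84, 11.87, 11.80 and 12.02, a fall of 1.06 ± 0.08. The complement protease C1r fell by 0.87 ± 0.12 and the antiplasmin Serpinf2 by 0.68 ± 0.08. The interleukin-6 receptor Il6r, counted with the acute phase genes, fell by 0.77 ± 0.12.

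Signalling and response genes held more called falls than rises. Of 18 immediate early genes, which growth factors and stress switch on within minutes, 9 fell and 1 rose, with a median of −0.35. Klf6 went from 13.47, 13.32, 13.26, 13.25 and 13.06 to 12.41, 12.35, 12.39, 12.25 and 12.41, a fall of 0.91 ± 0.06, and Egr1 fell by 0.60 ± 0.13. Of 22 genes of insulin and growth hormone signalling 9 fell and 1 rose, with 3 falls when ribosomal protein genes were set equal; the binding proteins Igfbp4 and Igfbp1 fell by 0.79 ± 0.12 and 0.53 ± 0.07.

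Of 25 chemokines, cytokine receptors and NF-kB targets 8 fell and 2 rose, with a median of −0.39. The neutrophil chemokine Cxcl1 fell by 0.94 ± 0.18, and Cxcl12 rose by 0.70 ± 0.11. The tested markers of Kupffer cells and leukocytes gave 0 calls in limma, with 2 of 9 at an unadjusted p under 0.05 and 1 called higher under each of the 4 other scalings, and their summed signal was 24649 to 31524 in vehicle and 27071 to 30181 at 1000 µM.

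In lists of cell stress markers falls outnumbered rises under the authors' scaling, beside 8.28% higher and 11.2% lower over all tested genes. Of 31 genes of the unfolded protein and integrated stress response 1 rose and 7 fell, which became 3 rises and 2 falls with ribosomal protein genes set equal; Hsp90b1, a chaperone of the endoplasmic reticulum, fell by 0.39 ± 0.06. Of 16 p53 targets 0 rose and 6 fell, Sesn1 and the cyclin Ccng1 (−0.54 ± 0.06) most; with array medians set equal 2 rose and 5 fell. Heat shock proteins gave 1 rise and 4 falls among 13, and 3 of each with ribosomal protein genes set equal.

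Glutathione transferases and targets of the oxidant sensor NRF2 gave 1 rise and 9 falls among 29, with 5 to 9 falls over the other scalings. Gstp1 went from 14.98, 14.64, 14.59, 14.54 and 14.57 to 13.71, 13.79, 13.81, 13.73 and 13.68, a fall of 0.92 ± 0.06 (adjusted p = 4.5e-13). Slc7a11, the cystine importer, fell by 0.67 ± 0.09 and sulfiredoxin (Srxn1) by 0.52 ± 0.07. The member that rose was Gsta4, which conjugates lipid aldehydes, by 0.58 ± 0.05.

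The remaining lists of metabolism and regulation held both rises and falls. Of 36 mitochondrial carriers 6 rose and 5 fell, of 19 glucuronosyl- and sulfotransferases 3 and 4, of 21 hepatocyte transcription factors and nuclear receptors 2 and 5, and of 15 circadian clock genes 2 and 1. Autophagy and lysosome genes gave 1 rise and 4 falls among 22, and apoptosis regulators 1 and 4 among 19. Metallothioneins with iron and zinc handling gave 3 rises and 4 falls among 18. Over all tested genes the share called was 19.5%, with 8.28% higher and 11.2% lower. The clock list lay near that share, the autophagy list was at 22.7% and the apoptosis list at 26.3%. The carrier, transferase, transcription factor and metallothionein lists were at 30.6% to 38.9%. The tested endothelial (4) and cholangiocyte (3) markers gave 0 calls in limma, with 1 of each at an unadjusted p under 0.05.

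Of 45 cytosolic ribosomal proteins limma called 0 (1 with array medians set equal), with 1 at an unadjusted p under 0.05 and a median of −0.06. Of 79 subunits of oxidative phosphorylation 8 rose and 1 fell, with a median of 0.03, and the rises numbered 2 to 18 over the 4 other scalings. Their share called, 11.4%, was below the 19.5% over all tested genes. Of 73 mitochondrial ribosomal proteins 9 rose and 1 fell, with 4 to 12 rises over those scalings. Their share called, 13.7%, was also below that of all tested genes. Mrps18a, the farthest from 0, rose by 0.82 ± 0.06. Of 41 proteasome genes 11 rose and 2 fell, a share called of 31.7%, with 3 to 18 rises over those scalings. The 2 that fell, Psmb8 (−0.36 ± 0.10) and Psmb9 (−0.28 ± 0.10), are subunits of the interferon-induced immunoproteasome, and both lost the call without vehicle replicate 1, at adjusted p of up to 0.15 and 0.23 over the alternatives.

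The lower dose was measured in 5 further wells at 24 h. Against the same vehicle wells, the changes at 250 and 1000 µM were 7.13 and 6.75 for Acot1, 3.97 and 3.83 for Ehhadh, 2.67 and 2.72 for Cyp4a1, and −3.04 and −2.84 for Ccn2. In the direct comparison of both doses limma called 2 genes (0.019%), and 335 genes (3.18%) had an unadjusted p under 0.05. The 95% interval of the difference between doses lay within 2-fold for 10135 of the 10528 tested genes and for 125 of the 136 genes changed at least 2-fold by 1000 µM. The median distance from the estimate to either end of that interval was 0.23, without adjustment for the number of genes.

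Both genes that differed between doses are induced by interferon and were lower at 1000 µM. Isg15, a ubiquitin-like protein, was at 11.39, 11.17, 11.33, 11.04 and 10.59 in vehicle, at 11.77, 11.93, 11.71, 11.35 and 11.39 at 250 µM and at 10.65, 10.91, 11.08, 10.84 and 10.88 at 1000 µM. Its 1000 µM wells lay below all 250 µM wells and within the vehicle range of 10.59 to 11.39. The difference from 250 µM was −0.76 ± 0.14 (adjusted p = 0.0207).

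Mx2, an antiviral GTPase, was at 10.56, 10.90, 11.04, 10.70 and 10.50 in vehicle, at 10.87, 10.95, 10.07, 10.59 and 10.59 at 250 µM and at 9.84, 9.73, 9.81, 9.5 and 9.82 at 1000 µM. The difference was −0.88 ± 0.16 from 250 µM (adjusted p = 0.0207) and −1.0 ± 0.16 from vehicle. A second Mx2 probe set gave −0.07 for 1000 µM against vehicle. The call between doses was lost for Isg15, for Mx2 or for both under 9 of the 10 omissions of 1 array, with an adjusted p of up to 0.188, and of up to 0.437 for Isg15 with the medians of all probe sets set equal. Leaving out 250 µM replicate 5 kept both, and omitting 1000 µM replicate 1, 2, 4 or 5 or 250 µM replicate 1 or 2 left 0 calls.

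Usp18, which removes Isg15 from proteins, differed by −0.50 ± 0.10 between doses and did not pass (adjusted p = 0.0545). Of the 24 interferon-induced genes tested, 6 fell and 0 rose against vehicle at 1000 µM, with a median of −0.18 and 3 to 5 falls over the other scalings. The median difference between doses in this list was −0.12.

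**Figure D4:**
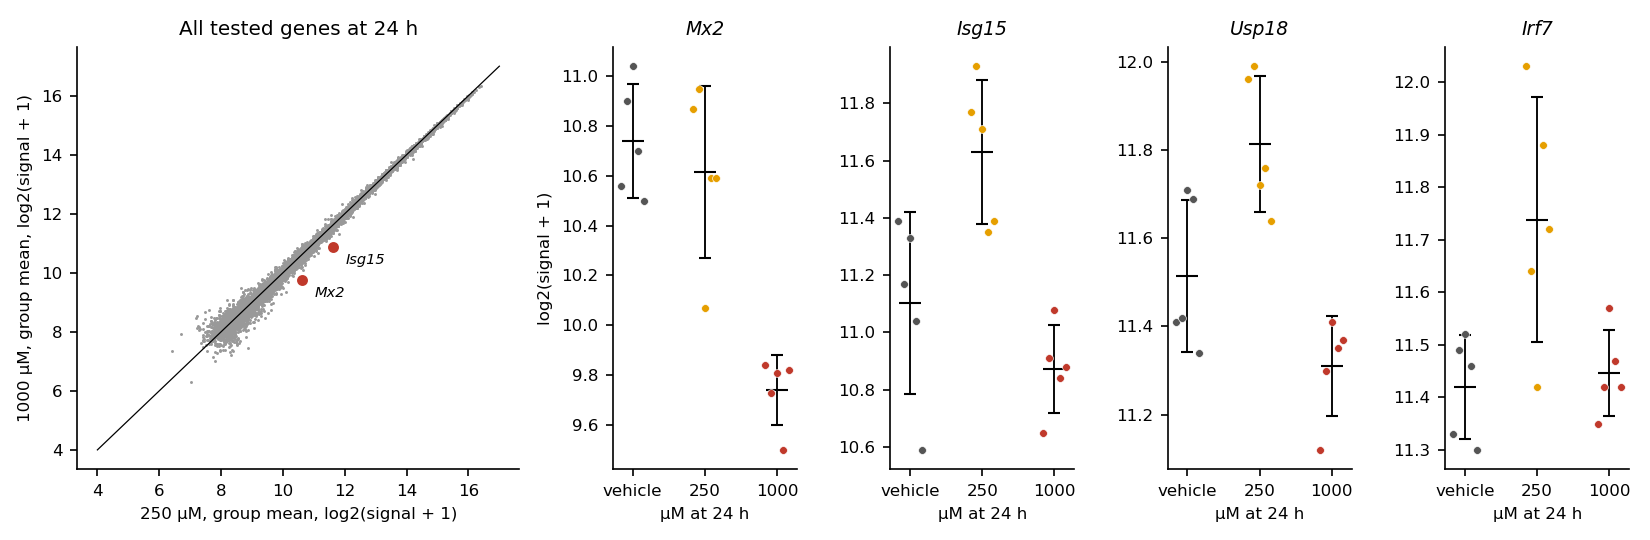
The left panel plots each tested gene's group mean at 1000 µM against that at 250 µM, both in log2(signal + 1) at 24 h, with the line of equality; Mx2 and Isg15 are the 2 called genes. The right panels show log2(signal + 1) of each well for Mx2, Isg15, Usp18 and Irf7, with the mean and 1 SD; all 5 wells of Mx2 at 1000 µM lie below its vehicle and 250 µM wells.

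The effect of 1000 µM was also compared between 24 and 48 h for 13 genes, each against vehicle wells of its own time. The sign was the same at both times in all 13, and the size differed in 2 of them, while limma called this difference in 0.969% of all tested genes. Fabp1 rose by 1.58 at 24 h and 2.36 at 48 h (difference 0.78 ± 0.07, adjusted p = 1.29e-08). Cyp4a1 rose by 2.72 and 2.13 (difference −0.59 ± 0.11, adjusted p = 0.00556). Both kept this call with array medians set equal and with the beta-actin ratio as a covariate.

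**Figure D5:**
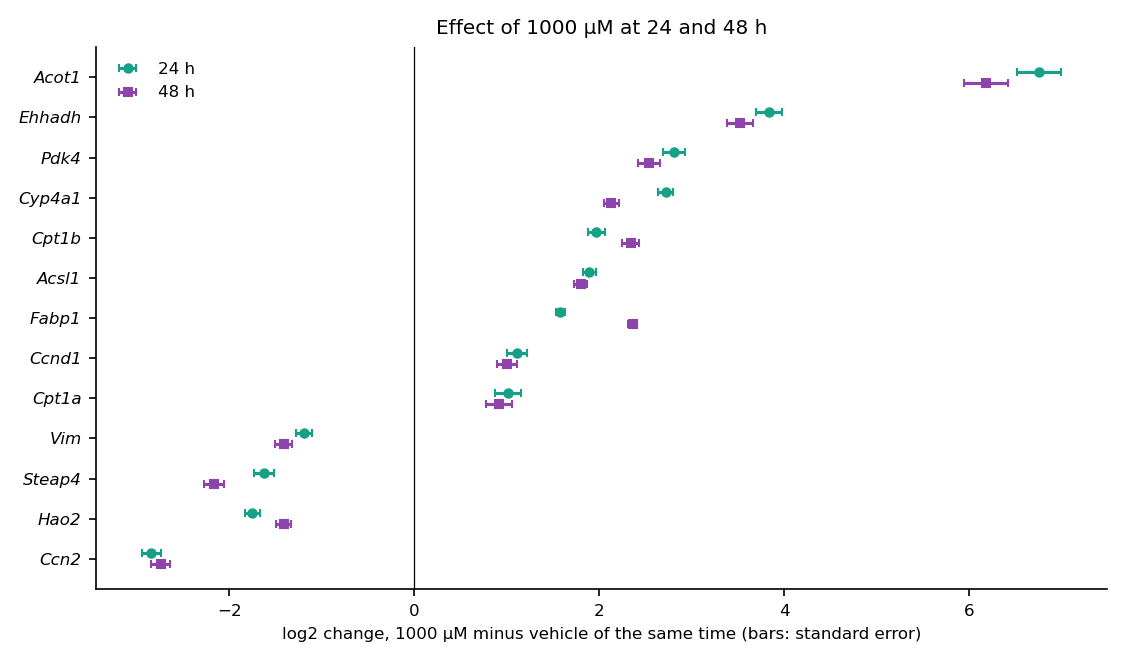
For 13 genes, the log2 change from vehicle to 1000 µM at 24 h (circles) and at 48 h (squares), with its standard error as a bar. The sign is the same at both times, Fabp1 lies higher at 48 h (2.36 against 1.58) and Cyp4a1 lower (2.13 against 2.72).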

How the data were processed

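RNA of 30 wells was read on microarrays, 1 array per well. The deposited values are linear intensity values, 1 per probe set, made with MAS5 per the submitters' processing notes; the sources used here name no version or settings. The authors' scaling gives each array the same mean after trimming 2% at each end. Signals were converted to log2 after adding 1. Of 31099 probe sets, 57 controls and the lowest 40% by mean were left out, the latter as the low-signal limit (7.88, signal 234.2). The platform annotation gave 1 gene for 20826 probe sets, of which 20758 were given RefSeq's current symbol by gene ID; 436 with several genes and 9780 with none were not used in gene tests. Of the 14112 that passed, the brightest per gene was kept (10528 genes).

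limma 3.58.1 in R 4.3.3 was fitted to all 30 arrays with 6 group means and a mean-variance trend, and tested on simulated data. Adjusted p-values are Benjamini-Hochberg over all tested genes, and a call means under 0.05. A value after ± is a standard error beside a change and an SD beside a level. Where a group mean lay below the limit, it was raised to the limit for the "at least" fold. The number of arrays limits the precision. The 52 gene lists and the members were chosen with earlier results of these data known. Genes named were the 15 largest rises and falls without overlap (means below the limit raised to it), up to 4 called members of each list, the called genes between doses and a fixed set (13 of it compared between times); any other gene named was chosen after its values were seen. Alternatives were other scalings, pseudocounts, filters, probe set choices, array subsets, a block over runs of 6 array numbers, and each array left out.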

Additional observations from a re-analysis of the deposited data

Results flagged for a closer look

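For 40 genes, the 5 wells of each group were checked for 1 well lying apart from the other 4. Such a well was found in 8 of 80 combinations, and chance gives about 5% of combinations. In vehicle it was replicate 1 in all 4 cases. Its level was 12.69 for Vim, where the other wells were at 13.31 to 13.45, and 14.08 for Cyp1a1, where they were at 14.98 to 15.09. It was 11.54 for Sesn1, against 12.12 to 12.26, and 12.07 for Ampd3, against 10.06 to 10.62. At 1000 µM, replicate 1 was at 15.77 for Cyp3a23-3a1, against 16.15 to 16.30 in the others, and at 15.50 for Alb, against 15.89 to 16.04. Replicate 5 was at 13.05 for Spc24, against 13.15 to 13.18, and replicate 2 at 6.72 for Sgsm2, against 7.83 to 8.22. Vim, Sesn1, Ampd3, Spc24 and Sgsm2 kept their calls when the well in question was left out, as did Cyp1a1. Alb had no call either way (adjusted p = 0.542 with all wells and 0.917 without replicate 1, by limma). Cyp3a23-3a1 gained one without replicate 1 at 1000 µM, at a change of 0.18 (adjusted p = 0.0458), against 0.09 (adjusted p = 0.456) with all wells.

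The effect of 1000 µM differed between times for Fabp1, by 0.78 (adjusted p = 1.29e-08), and for Cyp4a1, by −0.59 (adjusted p = 0.00556), in limma's test of the effect at 48 h minus that at 24 h. The beta-actin 3'/5' log2 ratio was 1.04 to 2.44 in vehicle at 48 h and 1.04 to 1.265 in vehicle at 24 h, and its part in the difference was not tested beyond the covariate fit, where the differences were 0.79 and −0.51.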

How the results depend on the processing

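Of 196 named genes called, 163 kept call and sign under all 28 alternatives, 33 lost the call under at least 1, and 0 changed sign. A 1.5-fold minimum was not among these 28, and causes were not tested. The count of 2051 calls became 1284 with the medians of all probe sets centred (chosen after seeing the data), 1354 at an adjusted p under 0.01 and 501 with a 1.5-fold minimum. Rises then numbered 255 with that minimum. The 1179 falls became 607 with those medians centred, 525 with ribosomal protein genes centred, 733 at 0.01 and 246 at 1.5-fold. Leaving out 1 array gave 1818 to 1955 calls, 798 to 843 rises and 1020 to 1145 falls. With the runs of 6 array numbers as a block there were 2132 calls. The labels give no replicate numbers beyond these runs.

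The 2 calls between doses became 0 with the medians of all probe sets centred, with ribosomal genes centred, with the 15 arrays of 24 h and without the mean-variance trend, 4 with the 10 arrays of these doses or with array weights, and 0 to 3 with 1 array left out. With the actin ratio as a covariate, the effect at 48 h minus 24 h turned from −0.31 to 0.03 for Ehhadh, −0.09 to 0.15 for Cpt1a and −0.10 to 0.06 for Acsl1, none called. Leaving out 1 array moved Alb between −0.19 and 0.00, and the actin ratio difference between −0.043 and 0.029. A gene near the low-signal limit has only a bound on its fold, and 3689 genes below it were not tested.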

Other observations

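Several genes outside the lists and some list members not described so far changed, and are given here as chosen after their values were seen. Some take part in coenzyme A supply. Pank1, the kinase that starts coenzyme A synthesis, rose by 1.41 ± 0.07, from a vehicle mean of 13.46 to 14.87. Slc25a42, which carries coenzyme A into mitochondria, rose by 1.40 ± 0.10. Nudt7, which breaks coenzyme A down inside peroxisomes, rose by 1.15 ± 0.05. Hsdl2, a peroxisomal dehydrogenase-like protein, rose by 1.37 ± 0.06, and Acot3, a further acyl-CoA thioesterase, by 1.64 ± 0.08.

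Lipid transfer and signalling genes were among the others that rose. They included Pctp, a phosphatidylcholine carrier (1.5 ± 0.08), Adipor2, an adiponectin receptor (1.21 ± 0.07), Tgm2, a protein crosslinker (1.28 ± 0.08), and Oat, ornithine aminotransferase (1.17 ± 0.14). Vnn1, which splits pantetheine, rose by 1.34 ± 0.05 and the glycerol channel Aqp7 by 1.30 ± 0.07, while the glycerol channel Aqp9 fell by 0.98 ± 0.12. Ucp2, a mitochondrial carrier, rose from a vehicle mean of 6.05, below the limit, to 8.97, which is at least 2.13-fold.

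Falls included membrane proteins. The prostaglandin transporter Slco2a1 fell by 1.11 ± 0.12 and the prostaglandin receptor Ptger3 by 1.07 ± 0.14. Gpc4, a cell surface proteoglycan, fell by 1.22 ± 0.12, and Otud1, a deubiquitinase, by 1.22 ± 0.11. Fkbp5, a glucocorticoid target, fell by 0.90 ± 0.09.

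Among 4173 probe sets above the limit with no gene in the annotation, 183 were higher and 306 lower at 1000 µM, or 11.7%, against 17.1% of probe sets with 1 gene. Of them 44 changed at least 2-fold.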
